A study of Mus musculus with 16 samples.

Results

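Interferon-stimulated genes are the antiviral and antiproliferative genes that cells switch on when an interferon binds its receptor. Type I and type III interferons signal through Jak1 and Tyk2 to a complex that holds Stat2 and Irf9 and binds the interferon-stimulated response element (ISRE) in the promoters of these genes. Type II interferon acts through the gamma-activated sequence (GAS). Their products sense foreign RNA, block translation and virus entry, or tag proteins with the ubiquitin-like Isg15, and some of them, such as Usp18, feed back on the interferon receptor. The genes were listed by symbol, with 58 symbols in 12 groups by role. Of these, 55 were in both tables of normalized counts and are the members described here. Iigp1 and Phf11d were in the tumor table only, and Ifi44 was in neither table and was not analysed here.

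The libraries came from a transplantable BCR-ABL+, Arf-/- B-cell acute lymphoblastic leukemia (B-ALL) marked with mCherry, a line that the study's methods describe as luciferase+ and of male origin. All groups received 500000 of these cells by tail vein, and the C57BL/6J hosts were wild-type (WT) or IL-6 knockout (IL6KO in the labels, IL-6 KO here), purchased at 6 to 8 weeks of age and not treated. The study used both sexes, and the labels do not give the sex of the host for any library. The bone marrow of femur and tibia was taken 8 days after the injection, red cells were lysed, and live cells were sorted into mCherry+ cells (tumor) and mCherry- cells (stroma), with 4 libraries for each genotype and compartment. Only the host lacked Il6: the leukemia in the IL-6 KO mice was the same line as in the WT mice. The labels do not say whether a library is 1 mouse, so p-values measure the spread between these libraries, and IL-6 signaling to a sorted cell and other differences between the hosts cannot be told apart. Il6 itself was in neither table, so the targeted gene gave no check of the labels.

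The sorted fractions differed in their cell type markers. Over 12 B lineage markers, the summed normalized count was 144029 to 162778 in tumor and 611 to 1719 in stroma. Stroma held erythroid cells, with a sum over 10 markers of 54701 to 224552, and neutrophils, with a sum over 12 markers of 7265 to 32349. Of 12 T and NK cell markers, 3 were in the stroma table, with a sum of 13.3 to 343, and 5 in the tumor table, with 1661 to 1982 in WT and 1195 to 1581 in IL-6 KO, while Cd3e and Cd8a were in neither. Of 8 plasmacytoid dendritic cell markers, 5 were in each table, with a sum of 558 to 1126 in stroma and 10474 to 12077 in tumor, and Siglech was in the stroma table only. The tables were normalized separately and held different markers of these lists. The T and NK and plasmacytoid sums therefore do not compare the amounts of such cells between the fractions. Genes at 0 made up 2.30 to 11.8% of the stroma table in each library and 0.743 to 1.45% of the tumor table. The RNA of the signal recognition particle gene Rn7s1 took 78.8, 71.5, 79.0 and 10.9% of the summed normalized counts in IL-6 KO stroma libraries 1 to 4. It took 19.2 to 50.1% in WT stroma and 3.40 to 6.24% in tumor. The summed normalized counts themselves were 8805690 to 17470700 in WT stroma. They were 44123000, 42342700, 44192000 and 33973000 in IL-6 KO stroma libraries 1 to 4, so library 4 had a large sum with a small share of Rn7s1. The stroma libraries were noisier, in that the median residual standard deviation of the members on the log2 scale was 0.67 in stroma and 0.26 in tumor. In such bulk samples, fewer cells of a type and less RNA per cell cannot be told apart.

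To show the element through which these genes are known to respond, the promoters of 42 of the 55 members were read from a RefSeq table (GRCm38.p6, 250 bases before to 50 after each start site) and searched on both strands for the core of the ISRE, GAAA and again GAAA with any 2 bases between. It was found in 21 of the 42 members (50%), against 3.99% of the 27025 genes in the table. A longer form, the core followed by CT, was found in 11 members (26.2%) against 0.303% of all genes, and the GAS core TTCNNNGAA in 11 members (26.2%) against 9.55%. The 6 members with the core that had the smallest p between genotypes in tumor are shown here, to place the element in genes whose values follow. Ifit3 is the only one of them that did not pass the test in tumor. The gene strand is written, every match within the window is in capitals, and a match past the start site is shown with at most 10 bases on either side.
Ddx58 (chr4:40239804-40239833, minus strand): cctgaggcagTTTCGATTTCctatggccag
Eif2ak2 (chr17:78882535-78882564, minus strand): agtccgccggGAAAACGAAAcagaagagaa
Ifitm3 (chr7:141010706-141010735, minus strand): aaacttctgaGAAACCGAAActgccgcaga
Ifih1 (chr2:62646206-62646233, minus strand): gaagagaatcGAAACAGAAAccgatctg
Oas1a (chr5:120907526-120907589, minus strand): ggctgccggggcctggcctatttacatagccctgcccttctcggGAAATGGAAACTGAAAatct
Ifit3 (chr19:34583357-34583466, plus strand): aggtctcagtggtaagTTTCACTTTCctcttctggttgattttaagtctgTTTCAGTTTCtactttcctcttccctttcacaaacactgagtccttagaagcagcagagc

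Matches lay close to the start site in 5 of these 6 promoters. They were centred 7 bases after it in Ddx58, 23 in Eif2ak2 and 37 in Ifih1. Ifitm3 had 2 matches, 7 and 24 bases after the start, of which the second is printed. Oas1a had 2 that overlap, 15 and 9 bases before the start, and Ifit3 had 2 farther off, 151 and 117 bases before it. In Ddx58 and Ifit3 the letters are on the opposite strand. A match is a description of the letters and not a bound site. Of the 13 members that passed the test in tumor, 8 had a promoter to read, and Rtp4, Parp14, Parp9, Usp18 and Mx2 had none. The core was in 5 of these 8, and in 16 of the 33 other members tested in tumor that had a promoter. Among the members with a promoter, the median change between host genotypes differed little with and without the core. In tumor the median log2 fold change (IL-6 KO over WT, on the log2(normalized count + 1) scale) was -0.26 over the 21 tested members with the core and -0.26 over the 20 without it, and in stroma it was -0.69 over 21 members and -0.55 over 20.

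To compare the whole list between libraries, the log2 values of the 52 members with a mean over 10 in each table were averaged in every library. In tumor the mean log2 level was 8.72, 8.38, 9.14 and 8.78 in WT libraries 1 to 4, and 8.50, 8.35, 8.45 and 8.46 in IL-6 KO libraries 1 to 4. The groups overlapped, because WT tumor 2 lay within the IL-6 KO range, and the WT libraries were spread (8.76 ± 0.31, SD, n = 4) while the IL-6 KO libraries were close together (8.44 ± 0.06, SD, n = 4). In stroma the mean level was 6.93, 6.85, 7.49 and 7.38 in WT and 6.205, 6.72, 6.46 and 6.98 in IL-6 KO (7.16 ± 0.32 and 6.59 ± 0.34, SD, n = 4 each). IL-6 KO stroma 4 lay above WT stroma 1 and 2, so these groups overlapped too. The tables were normalized separately, and the level of one compartment against the other is not read from these means.

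**Figure D1:**
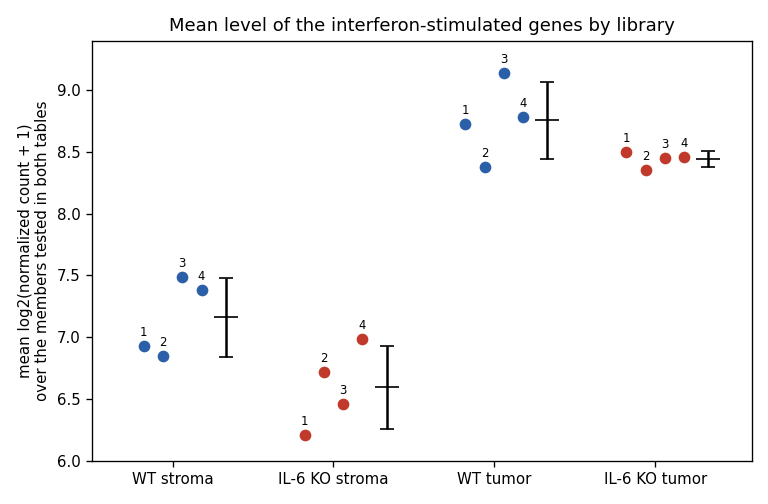
Mean log2(normalized count + 1) over the 52 members tested in both tables, for each of the 16 libraries (points, with their replicate number) and as group mean ± SD (n = 4). The 4 IL-6 KO tumor libraries lie between 8.35 and 8.50, while the WT tumor libraries run from 8.38 to 9.14.

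The libraries that stood out were the same for many members. WT tumor 3 had the highest of the 8 tumor values in 39 of 54 members, while WT tumor 2 and IL-6 KO tumor 2 had the lowest in 18 members each. In stroma IL-6 KO stroma 1 had the lowest value in 20 of 53 members. After the group means were taken out, the members went up and down together over the 8 tumor libraries. The mean correlation between pairs was 0.40 over 54 members and 0.00023 over all 14493 genes tested, and in stroma it was 0.16 over 53 members and 0.0031 over all 12202. It was not computed for each genotype alone, and the mean level was more spread in WT tumor (SD 0.31) than in IL-6 KO tumor (SD 0.06). The pairs share the same 8 libraries, so these are descriptions. Trim21 (r = 0.97 with the sum of the other members), Tor3a (0.93), Oas1a (0.93), Ifit1 (0.93) and Usp18 (0.91) followed the other members most closely in tumor, and Rsad2 (-0.15) and Ifit2 (-0.12) did not follow them. In WT mice the order of the libraries from lowest to highest was 2, 1, 4 and 3 in both compartments, whereas in IL-6 KO mice it was 1, 3, 2, 4 in stroma and 2, 3, 4, 1 in tumor. The labels do not say that a number marks the same mouse in stroma and tumor.

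**Figure D2:**
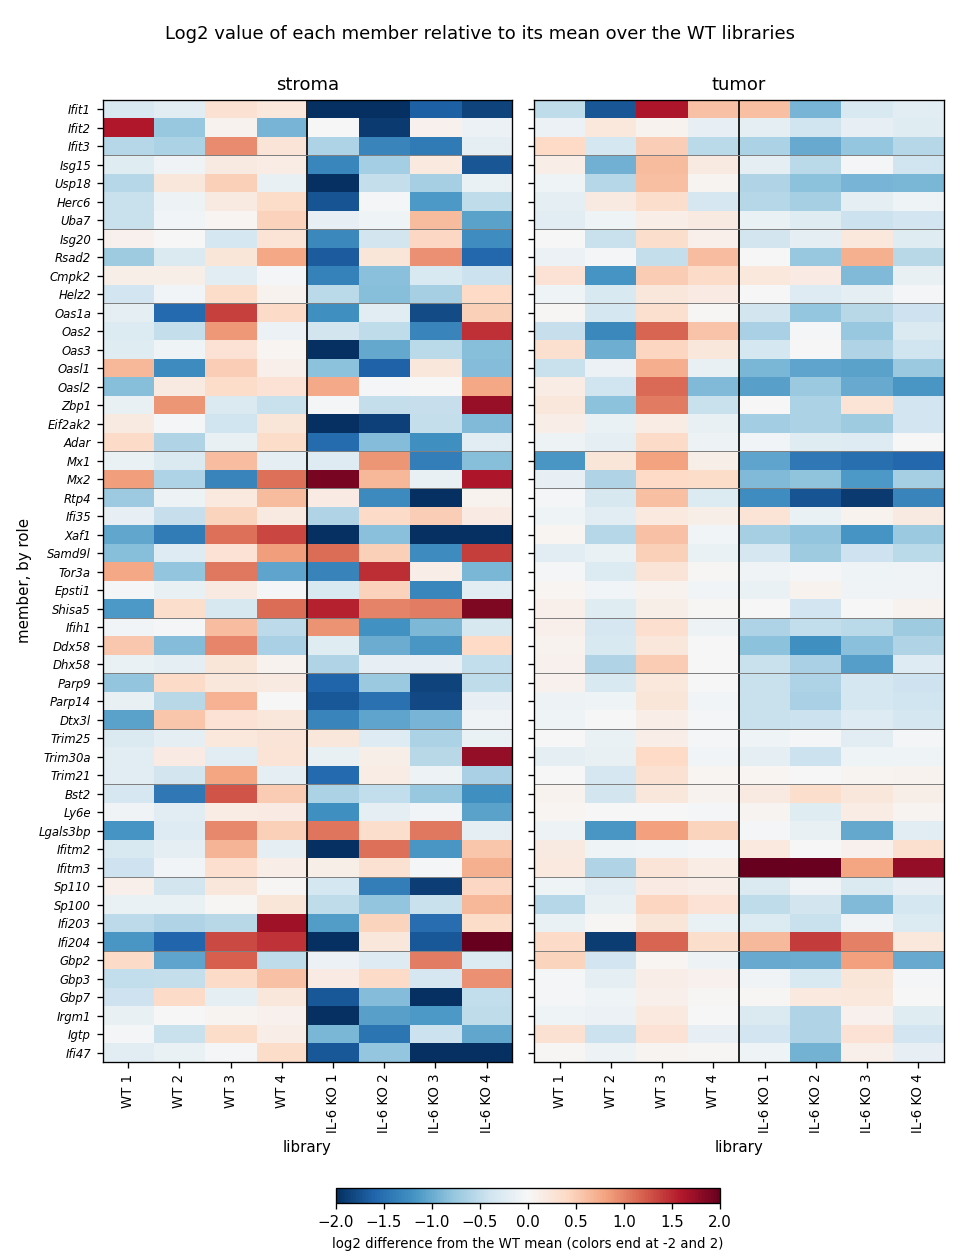
Log2(normalized count + 1) of the 52 members tested in both tables, each relative to its mean over the WT libraries of the same table, by library (columns) and by role (rows, separated by lines); colors end at -2 and 2. In tumor, WT library 3 is above the WT mean and the IL-6 KO libraries are below it in most rows, while Ifitm3 is above it in IL-6 KO. Stroma is more variable from library to library.

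To find the members that differed in the leukemic cells by host genotype, the tumor table was tested with limma over all 14493 genes with a mean over 10, and 54 members were tested. The level was lower in IL-6 KO for 12 members (22.2%), against a background of 9.16% of all genes called lower, and for 1 member, Ifitm3, the level was higher (1.85%), against 10.6% of all genes called higher. The median log2 fold change was -0.27 over the members and -0.01 over all genes tested, and 45 of the 54 members had a lower value in IL-6 KO, as had 50.7% of all genes. At an unadjusted p under 0.05, 22 members (40.7%) were lower, against 16.8% of all genes, and 1 (1.85%) was higher, against 18.3%. The 12 members were 2 of 3 RIG-I-like receptors, all 3 tested genes of the PARP family and Dtx3l, 3 of 8 genes of the OAS family and RNA binding enzymes, 1 of 2 Mx GTPases, 1 of 4 genes of the Isg15 pathway, and Rtp4 and Xaf1 among 8 genes in no other group. No IFIT, TRIM, GBP or IRG gene and no nuclear protein of the list was called in either direction. Every IL-6 KO library lay below every WT library in 15 members (27.8%), against 12% of all genes, and above in 1 (1.85%), against 13.6%.

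Among the RIG-I-like receptors, Ddx58 and Ifih1 were called lower. Ddx58, which encodes the cytosolic RNA sensor RIG-I, had normalized counts of 1050, 807, 1161 and 1004 in WT tumor and 561, 425, 560 and 657 in IL-6 KO tumor. All IL-6 KO values were below the lowest WT value, and the gene fell by 0.87 on the log2 scale (standard error, SE, 0.15, limma adjusted p = 0.00554). Ifih1, the related sensor MDA5, had 424, 312, 495 and 365 in WT and 256, 279, 269 and 241 in IL-6 KO. It fell by 0.59 on the log2 scale (SE 0.15, limma adjusted p = 0.0227), and its IL-6 KO values were closer together than its WT values. The third receptor of this family, Dhx58, had 380 ± 115 in WT and 245 ± 57.8 in IL-6 KO (SD, n = 4 each, limma adjusted p = 0.107), and its groups overlapped.

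Eif2ak2, the kinase PKR that stops translation on sensing viral RNA, had 1644, 1363, 1664 and 1353 in WT tumor and 929, 963, 912 and 1149 in IL-6 KO tumor. The groups were well apart, and the level fell by 0.61 on the log2 scale (SE 0.11, limma adjusted p = 0.00632). Oas1a belongs to the oligoadenylate synthetases, whose products activate the nuclease RNase L, and Oasl1 is an OAS-like gene. Both were lower. Oas1a had 428, 330, 526 and 428 in WT and 327, 245, 287 and 318 in IL-6 KO (log2 fold change -0.53, SE 0.16, limma adjusted p = 0.0418). The highest IL-6 KO value was just under the lowest WT value. Oasl1, which in mice limits the translation of Irf7, had 90.5, 114, 206 and 112 in WT and 65.4, 59.0, 58.3 and 73.4 in IL-6 KO (log2 fold change -0.95, SE 0.25, limma adjusted p = 0.0274). WT tumor 3 was far above the other WT libraries for this gene. Oas2, Oas3, Oasl2, Zbp1 and Adar had lower mean values in IL-6 KO and adjusted p-values of 0.0921 or more.

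Parp14 and Parp9 encode ADP-ribosyltransferases, and Dtx3l encodes a ubiquitin ligase that is the partner of Parp9. All 3 lie side by side on chromosome 16 (35832874 to 35972605 on GRCm38), where the starts of Parp9 and Dtx3l overlap on opposite strands. Whether reads there were shared between them was not tested. Parp14 had 1709, 1735, 2187 and 1771 in WT tumor and 1345, 1178, 1440 and 1396 in IL-6 KO tumor (log2 fold change -0.46, SE 0.10, limma adjusted p = 0.0141). Dtx3l had 2383, 2519, 2770 and 2478 in WT and 1870, 1888, 2117 and 1987 in IL-6 KO (log2 fold change -0.37, SE 0.07, limma adjusted p = 0.0102). Parp9 had 1642, 1257, 1803 and 1555 in WT and 1144, 1008, 1218 and 1160 in IL-6 KO (log2 fold change -0.46, SE 0.12, limma adjusted p = 0.0236). In none of the 3 genes did the genotypes overlap, and their changes were small in size next to those of Rtp4 or Ddx58. Parp12, the remaining gene of the group, was below the filter, with 0 to 11.2 in WT and 5.24 to 19.1 in IL-6 KO.

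The largest change among the members called lower was in Rtp4, a Golgi chaperone of certain receptors. It had 223, 182, 345 and 187 in WT tumor and 95.1, 67.4, 59.0 and 90.03 in IL-6 KO tumor, and fell by 1.55 on the log2 scale (SE 0.24, limma adjusted p = 0.00379). The highest IL-6 KO value was well under the lowest WT value. Xaf1, which promotes cell death by binding the apoptosis inhibitor Xiap, had 254, 165, 373 and 237 in WT and 155, 142, 109 and 148 in IL-6 KO (log2 fold change -0.84, SE 0.23, limma adjusted p = 0.0327). Usp18, the protease that removes Isg15 from proteins and dampens the type I receptor, had 195, 139, 314 and 214 in WT and 136, 117, 108 and 110 in IL-6 KO (log2 fold change -0.81, SE 0.23, limma adjusted p = 0.0343). For Usp18 the lowest WT value, in WT tumor 2, was close to the highest IL-6 KO value. Mx2, of the Mx GTPase family but annotated as a polymorphic pseudogene, had 75.6, 55.8, 112 and 111 in WT and 46.0, 48.2, 37.9 and 53.4 in IL-6 KO (log2 fold change -0.87, SE 0.26, limma adjusted p = 0.0421). The other Mx gene of the list, Mx1, was at 27.2 ± 13.4 in WT and 8.72 ± 1.64 in IL-6 KO (SD, n = 4 each). With WT tumor 1 at 10.3 and IL-6 KO tumor 1 at 11.1 the groups overlapped (limma adjusted p = 0.0565).

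The exception was Ifitm3, a membrane protein that blocks virus entry, which had 44.1, 25.2, 46.3 and 43.0 in WT tumor and 169, 155, 67.1 and 133 in IL-6 KO tumor. It rose (log2 fold change 1.66, SE 0.32, limma adjusted p = 0.00852), and IL-6 KO tumor 3 was the lowest of its group. Neutrophil markers moved the same way in the sorted tumor cells. Their sum over 12 markers was 4736 to 5345 in WT tumor, and 17379, 18193, 7647 and 16499 in IL-6 KO libraries 1 to 4. All 12 were in the table. The sum over 12 monocyte and macrophage markers was 823 to 1249 in WT and 1070 to 3671 in IL-6 KO, again lowest in IL-6 KO tumor 3. The part of these cells in the Ifitm3 result was not tested. The neighbouring members Ifitm1 (109 ± 19.0 in WT and 145 ± 24.8 in IL-6 KO, SD, n = 4 each) and Ifitm2 (1706 ± 147 and 1890 ± 191) had higher mean values in IL-6 KO and adjusted p-values of 0.153 and 0.297.

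**Figure D3:**
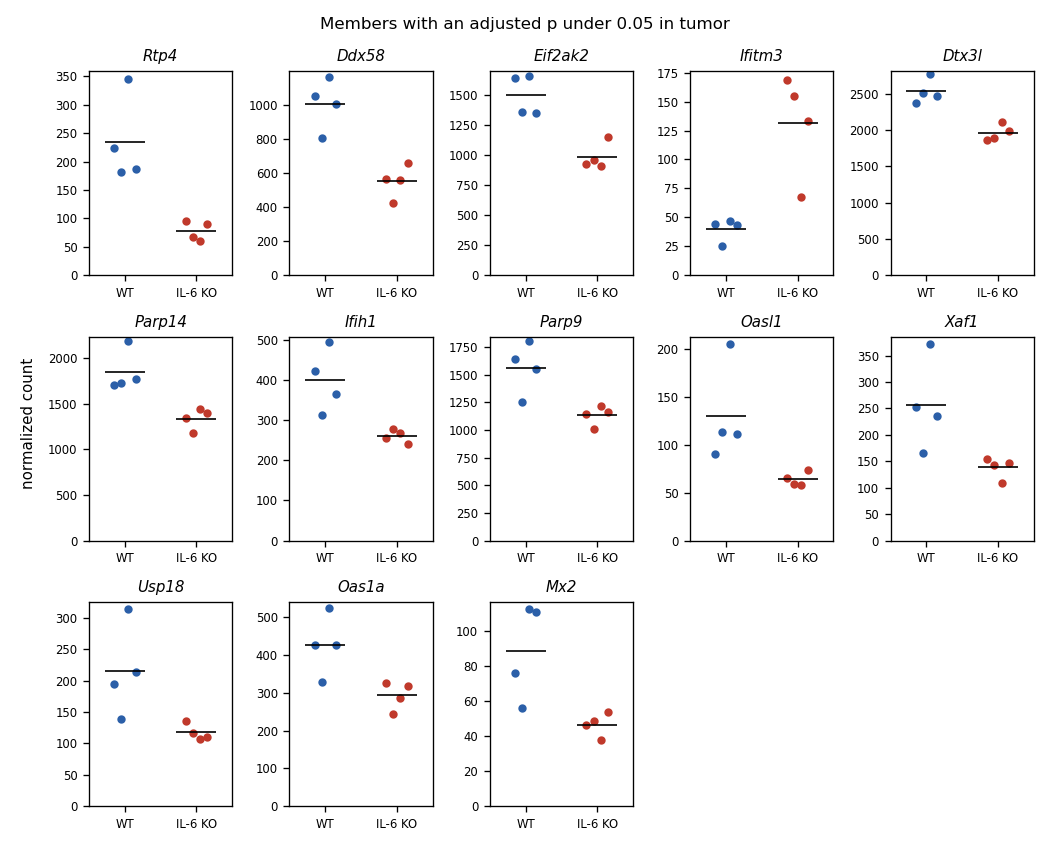
Normalized counts of the 13 members with an adjusted p under 0.05 in tumor, with each library as a point (left to right, libraries 1 to 4), the group mean as a line and every axis from 0. The IL-6 KO values lie below the WT values in 12 panels and above them for Ifitm3.

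The calls differed in how much they rested on 1 library. Rtp4, Ddx58, Eif2ak2, Dtx3l, Parp14 and Ifitm3 were called with each of the 8 tumor libraries left out in turn, and the other 7 were not. Mx2, Usp18 and Oas1a were called in 1 of the 8 cases, Xaf1 in 2, Parp9 in 3, and Ifih1 and Oasl1 in 4. Mx2, Usp18, Xaf1 and Oasl1 also lost their calls with quantile normalization and with the replicate number as a block, Oas1a with quantile normalization, and Ifih1 with the trend in GC content and length removed. Without WT tumor 3, in which the members were highest, 6 members were called lower (11.1%, against 5.48% of all genes in that fit). With IL-6 KO tumor 1 left out it was 5 (9.26%, against 5.31%), and with library 4 of that group left out also 5 (9.26%, against 5.06%).

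Other members with high levels did not pass the test. Ly6e, a lipid-anchored surface protein, had 11533, 11182, 11152 and 11099 in WT tumor and 11726, 9516, 12402.5 and 11702.5 in IL-6 KO tumor (log2 fold change 0.01, SE 0.08, limma adjusted p = 0.972). Gbp7, Trim25 and Helz2 had log2 fold changes of 0.11, -0.08 and -0.12, with adjusted p-values of 0.320 or more. Adar, the enzyme that edits adenosine in RNA, stood at 3362, 3200, 4712 and 3364 in WT and 3495, 3055, 3011 and 3606 in IL-6 KO, so that WT tumor 3 alone was apart. Ifit1 and Isg15, known as strongly inducible genes, were at 6.76 to 77.2 and 49.4 to 151 in WT tumor and at 12.3 to 37.4 and 66.2 to 95.1 in IL-6 KO tumor, with wide overlap.

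Among the GBP and IRG GTPases, which act on the membranes of intracellular microbes and respond to type II interferon, Gbp2 in IL-6 KO tumor 3 stood apart from the other IL-6 KO libraries. The mean log2 level over the 6 members was 10.30, 9.98, 10.33 and 10.18 in WT libraries 1 to 4 and 9.90, 9.65, 10.49 and 9.89 in IL-6 KO libraries 1 to 4. For Gbp2, named here after its values were seen, the values were 989, 551, 743 and 673 in WT and 359, 362, 1283 and 359 in IL-6 KO. Iigp1, outside the rule because it was in the tumor table only, had 127, 57.8, 98.01 and 123 in WT and 25.2, 23.8, 118 and 13.6 in IL-6 KO. Neither passed the test (limma adjusted p = 0.349 for Gbp2 and 0.0783 for Iigp1). Phf11d, also outside the rule, was at 174 to 245 in WT and 131 to 165 in IL-6 KO (limma adjusted p = 0.0779), with no overlap.

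The question for the stroma was whether the host cells of the same marrow differed in these genes. No member was called there (limma, 53 members tested, adjusted p under 0.05), against a background of 0.0082% of the 12202 genes tested. At an unadjusted p under 0.05, 11 members (20.8%) were lower in IL-6 KO, against 5.2% of all genes, and 1 member (1.89%), Shisa5, was higher, against 3.95%, which makes 12 members (22.6%) in either direction against 9.15%. The median log2 fold change was -0.62 over the members and -0.01 over all genes, and 42 of the 53 members had a lower value in IL-6 KO, as had 50.6% of all genes. Every IL-6 KO library lay below every WT library in 7 members (13.2%), against 3.25% of all genes, and above in none, against 2.54%. These 7 members were Ifit1, Oas3, Eif2ak2, Ifi47, Irgm1, Gbp7 and Cmpk2.

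Ifit1, which binds viral RNA with an unmethylated cap, had normalized counts of 95.7, 101, 147 and 137 in the WT stroma and 8.24, 12.8, 37.2 and 31.8 in IL-6 KO. It differed by -2.57 on the log2 scale (SE 0.60, unadjusted p = 0.000962, limma adjusted p = 0.302), with a gap between the genotypes. Oas3 had 992, 1114, 1437 and 1215 in WT and 288, 579, 809 and 655 in IL-6 KO (log2 fold change -1.11, SE 0.35, limma adjusted p = 0.431). Eif2ak2 had 329, 288, 221 and 344 in WT and 56.7, 79.4, 210.0 and 157 in IL-6 KO (log2 fold change -1.39, SE 0.46, limma adjusted p = 0.432). In Eif2ak2 the closest pair was WT stroma 3 and IL-6 KO stroma 3. Cmpk2, a mitochondrial nucleotide kinase, had 884, 889, 708 and 799 in WT and 318, 459, 662 and 605 in IL-6 KO (log2 fold change -0.73, SE 0.32, limma adjusted p = 0.522).

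Of the 6 tested GBP and IRG GTPases, 3 were in this set. Irgm1 had 212, 236, 245 and 248 in WT and 31.9, 110, 105 and 164 in IL-6 KO (log2 fold change -1.40, SE 0.49, limma adjusted p = 0.440). Its WT values were closely grouped. Ifi47 had 52.1, 54.9, 59.2 and 77.8 in WT and 17.9, 34.98, 11.8 and 9.53 in IL-6 KO (log2 fold change -1.82, SE 0.63, limma adjusted p = 0.434). Gbp7 had 139, 243, 162 and 216 in WT and 56.7, 101, 34.4 and 131 in IL-6 KO (log2 fold change -1.36, SE 0.49, limma adjusted p = 0.440), and the highest IL-6 KO value was near the lowest WT value. The mean log2 level over the 6 GTPases was 6.25 ± 0.27 in WT and 5.39 ± 0.25 in IL-6 KO stroma (SD, n = 4 each), and in tumor it was 10.20 ± 0.16 and 9.98 ± 0.36.

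Parp14, Parp9, Xaf1 and Adar were also among the 12 members with the smallest p in stroma, each with overlapping groups. Parp14 had 607, 454, 1091 and 671 in WT and 207, 237, 192 and 596 in IL-6 KO, where IL-6 KO stroma 4 was far above the others. Parp9 had 160, 362, 325 and 313 in WT and 90.4, 164, 76.1 and 193 in IL-6 KO. Xaf1 had 19.8, 15.3, 91.8 and 108 in WT and was listed at 0, 23.1, 5.97 and 1.56 in IL-6 KO. Adar had 1372, 689, 943 and 1359 in WT and 360, 572, 448 and 893 in IL-6 KO. Shisa5, an endoplasmic reticulum protein linked to cell death, went the other way, with 18.9, 54.8, 34.3 and 93.8 in WT and 126, 86.5, 88.3 and 159 in IL-6 KO (log2 fold change 1.35, SE 0.56, limma adjusted p = 0.502).

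**Figure D4:**
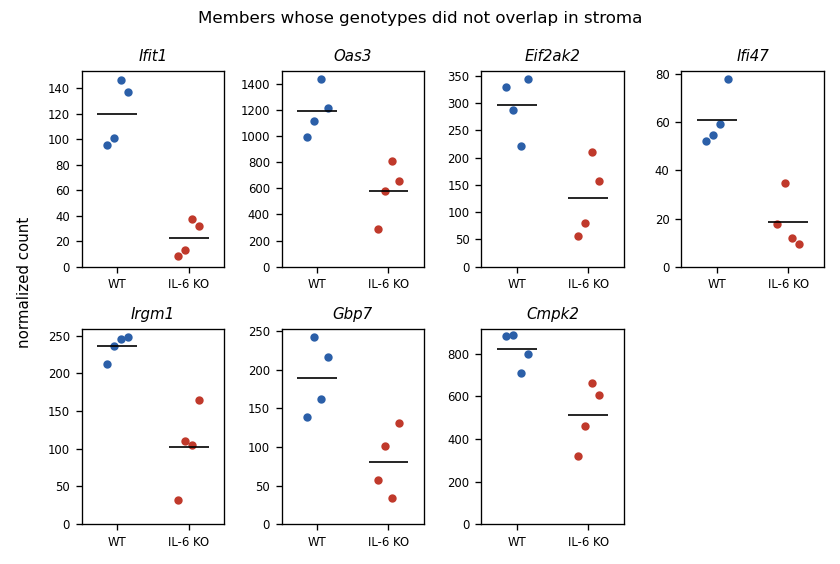
Normalized counts of the 7 members whose IL-6 KO stroma libraries all lay below the WT stroma libraries, with each library as a point (left to right, libraries 1 to 4), the group mean as a line and every axis from 0. None of the 7 had an adjusted p under 0.05, and the smallest was 0.302 for Ifit1.

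The cell content of the stroma libraries varied as well. Over 12 neutrophil markers the summed normalized count was 7718, 11009, 12997 and 14631 in the WT libraries and 32349, 31405, 7265 and 27515 in those of IL-6 KO stroma. Over the 10 erythroid markers in the table it was 130711, 166004, 130798 and 187651 in WT and 60931, 133992, 224552 and 54701 in IL-6 KO. Over the 9 monocyte and macrophage markers in the table it was 556, 802, 810 and 1270 in WT and 1084, 1262, 784 and 2035 in IL-6 KO. Rsad2, the antiviral enzyme viperin, had 1297, 1741, 2528 and 3634 in the WT libraries and 674, 2520, 4017 and 715 in those of IL-6 KO stroma. Its higher IL-6 KO values were in libraries 2 and 3, with the higher erythroid sums. In WT, library 4 had the highest erythroid sum (187651) and the highest Rsad2 (3634). WT libraries 1 and 3 had nearly the same erythroid sum (130711 and 130798) and Rsad2 at 1297 and 2528. Isg20, an exonuclease, had 260, 494, 850 and 268 in IL-6 KO stroma, and Uba7, the enzyme that activates Isg15, had 1673, 1771, 2918 and 901, both highest in IL-6 KO stroma 3. Trim30a, Sp100, Oas2 and Zbp1 were instead highest in IL-6 KO stroma 4, at 704, 876, 351 and 88.6. The 5 plasmacytoid dendritic cell markers in the table summed to 709, 1027, 1084 and 848 in WT and 558, 852, 1126 and 572 in IL-6 KO, with overlap, although Siglech alone was higher in WT, at 53.4 to 82.1 against 3.48 to 42.0. IL-6 KO stroma 1 and 3 had the lowest mean levels of the members (6.205 and 6.46) among the stroma libraries. They also had the largest shares of genes at 0 (11.8 and 9.20%) and of Rn7s1 (78.8 and 79.0%). The part of these cell types and of these library differences in the stroma values was not tested.

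Set side by side, 35 of the 52 members tested in both tables had a lower value in IL-6 KO mice in stroma and in tumor, 2 had a higher value in both (Ifitm3 and Ifi35), 6 were lower in stroma only and 9 lower in tumor only. Most members had a lower value in each table alone, 42 of 53 (79.2%) in stroma and 45 of 54 (83.3%) in tumor. The count lower in both therefore does not by itself link the compartments. The sizes did not follow each other, with a Spearman correlation of 0.06 across the 52 members. Of the 12 members called lower in tumor, 11 had a lower value in stroma, against 79.2% of all members tested there. Their stroma log2 fold changes ran from -3.24 for Xaf1 to 1.01 for Mx2. The value for Xaf1, a gene listed at 0 in 1 of these libraries, was -2.27 with a pseudocount of 5, -2.23 with array weights and -4.04 to -2.51 with each stroma library left out. Ifit1, with the smallest p in stroma, had a log2 fold change of -0.21 in tumor (limma adjusted p = 0.850), and Rtp4, with the smallest p in tumor, had -0.77 in stroma (limma adjusted p = 0.791). The difference between compartments was not tested, because the tables were normalized separately.

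The other genes of the interferon pathway were taken from lists of 56 genes by role. None of the 21 ligand genes was in either table, and they were not analysed here. In tumor 34 genes of the pathway were tested, and 5 were lower (14.7%, against 9.16% of all genes) and 5 higher (14.7%, against 10.6%) in IL-6 KO. Irf7, the regulator that amplifies type I interferon, had 111, 167, 206 and 163 in WT and 88.0, 78.5, 77.5 and 88.1 in IL-6 KO, and fell by 0.92 (SE 0.20, limma adjusted p = 0.0128). The genotypes did not overlap.

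The repressor Irf2 and the RNA sensor Tlr7 were also lower, with log2 fold changes of -0.42 and -1.12 (limma adjusted p = 0.0160 and 0.0117), as was the nucleotide hydrolase Samhd1 with -0.49 (limma adjusted p = 0.0353). The phosphatase Ptpn11 (0.38), the B cell and myeloid regulator Irf8 (0.38), the kinase Tyk2 (0.30), the receptor chain Ifnlr1 (1.13) and the adaptor Myd88 (0.40) were higher in IL-6 KO on the log2 scale, with limma adjusted p-values from 0.00785 to 0.0462. Stat2 and Irf9, parts of the complex at the ISRE, had log2 fold changes of 0.04 and -0.36 (limma adjusted p = 0.858 and 0.254). The receptor chains Ifnar1, Ifnar2, Ifngr1 and Ifngr2 had log2 fold changes from -0.16 to -0.04, with limma adjusted p-values from 0.275 to 0.803. In stroma 29 pathway genes were tested and none was called by limma, and at an unadjusted p under 0.05 Mavs (-1.75) and Irf9 (-0.83) were lower and Myd88 (1.58) and Samhd1 (0.93) higher on the log2 scale. These were 6.9% of the genes tested in each direction, against 5.2% and 3.95% of all genes.

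To describe the levels of the members, normalized counts were divided by the length of the longest transcript, and each gene was given its percentile among the 11809 genes in both tables within each library. A percentile is a rank within a library, and the compartments are different cell types, so no test was made. The median percentile of the 55 members was 55.3 in stroma and 40.8 in tumor. For 21 members every stroma library was above every tumor library (against 17.6% of all genes), for 6 members every tumor library was above every stroma library (against 21.4%), and 28 overlapped.

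The highest members per kilobase in stroma were Uba7 (518 normalized counts per kilobase over the 8 libraries), Isg20 (511), Rsad2 (511), Isg15 (469) and Cmpk2 (203), and the lowest were Ifitm1 (5.66), Gbp3 (7.26), Zbp1 (9.84), Ifit2 (10.9) and Ifi204 (11.5). In tumor the highest were Ly6e (4949), Ifitm2 (2745), Epsti1 (825), Gbp7 (805) and Shisa5 (734), and the lowest were Parp12 (2.93), Rsad2 (4.91), Mx1 (5.30), Ifi204 (7.20) and Ifit1 (10.7). Rsad2 was at percentile 94.8 ± 4.08 in stroma and 5.65 ± 2.07 in tumor (SD, n = 8 libraries each), the largest gap of the list. Oas3 (87.4 and 11.2), Cmpk2 (89.6 and 14.3), Isg20 (96.0 and 29.2) and Isg15 (95.3 and 32.1) followed, all with higher percentiles in stroma. On the other side, Ifi27l2a was at percentile 26.5 ± 17.0 in stroma and 69.8 ± 6.64 in tumor, and Ifitm2 (52.3 and 93.5), Gbp3 (21.4 and 57.3), Gbp7 (44.0 and 77.1) and Ifi47 (41.3 and 73.8) also had higher percentiles in tumor. These gaps were far larger than the spread between libraries for Rsad2, Oas3, Cmpk2, Isg20 and Isg15, while the stroma libraries of Ifi47 overlapped its tumor libraries.

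**Figure D5:**
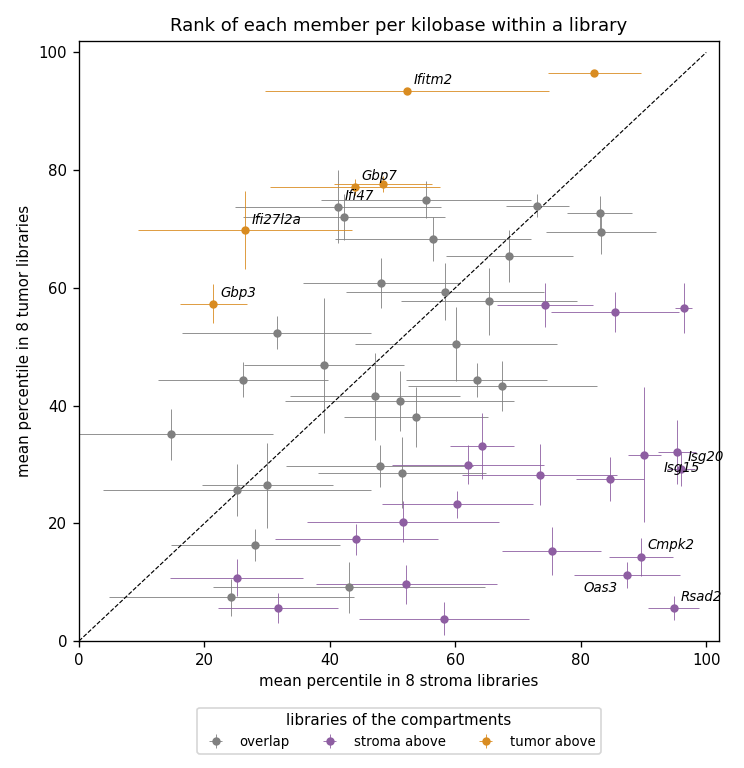
Mean percentile of each of the 55 members, per kilobase of longest transcript, in the 8 stroma libraries (horizontal axis) and the 8 tumor libraries (vertical axis), with the SD as bars, colored by whether the libraries of the compartments overlap; the dashed line marks equal percentiles. Rsad2, Oas3, Cmpk2, Isg20 and Isg15 lie at the lower right, and Ifi27l2a, Ifitm2, Gbp3, Gbp7 and Ifi47 above the dashed line.

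Near-identical copies limit some of these values. Of the 55 members, 15 share a stretch of 150 nucleotides or more, at 97% identity or higher, with a transcript of some other gene. Among the members called in tumor these are Rtp4 (Gm45338) and Oas1a (Oas1g), and among those in stroma that did not overlap, Gbp7 (Gm43802), so that reads could be split between copies. Ifitm1 and Ifi27l2a were below the filter in stroma, with values of 0 to 16.3 and 0 to 11.7.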

How the data were processed

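RNA was prepared with a directional kit with rRNA depletion and sequenced with single-end reads of 75 nucleotides. Per the submitters' processing notes and the study's methods, the authors used Salmon 1.3.0 on mm10 (GC and sequence bias options on), and DESeq2 1.28.1 to normalize. The deposited values are normalized counts, a scaled signal per gene and library, made separately for stroma and tumor. Whole reads could not be recovered and library depths are not stated in the files, so no test or interval based on counting was computed. The authors also deposited results of their own comparison (fold changes and p-values), which were not used.

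Here log2(normalized count + 1) was tested with limma 3.58.1 (R 4.3.3, variance trend with the mean, two-sided) on genes with a mean over 10, separately in stroma (12202 genes) and tumor (14493 genes), with genotype as the only term and Benjamini-Hochberg adjustment over all genes at a threshold of 0.05. The test was tried on simulated data. All 16 libraries were used and grouped by their labels. Identifiers were matched without version to GENCODE vM21 (13338 of 13344 in stroma and 15069 of 15080 in tumor). BLAST 2.17.0 searched for near-identical transcripts. Promoter sequences are from RefSeq. Python 3.11.15 and pandas 2.3.3 were used for levels, markers and motifs and matplotlib 3.10.9 for figures.

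Members and lists were chosen with earlier results of these data known. Named members were, in each table, the 12 with the smallest p, the member of each role with the largest mean, the 5 highest and 5 lowest per kilobase, those that did not overlap in stroma, and the 5 with the largest percentile difference each way. Named pathway genes were Stat2, Irf9, Irf7, the receptors and up to 8 others called in tumor, and 1 result is not reported here. Promoters were printed for up to 6 members with the ISRE core and the smallest p in tumor. Other genes were named after their values were seen. The replicate numbers did not pair the WT and IL-6 KO libraries. Alternatives were pseudocounts of 0.5 and 5, no filter and a mean over 50, quantile normalization, median centring, limma array weights, a block for replicate number, leaving out every library in turn, percentiles over genes with a mean over 10, and the longer ISRE. A loess removal of GC content and length trends was added after the values were seen.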

Additional observations from a re-analysis of the deposited data

Results flagged for a closer look

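Within a group of 4 libraries, 1 library far from the other 3 was looked for by Dixon's test in 268 sets of values, over all members tested, the named pathway genes, Iigp1 and the mean level. It was found in 17. Chance flags about 1 in 20 such groups where values are normally distributed. Genes were taken as normalized counts, for which that was not checked, and the number flagged was not tested against chance. In tumor, WT tumor 3 was high for Adar (4712, others 3200 to 3364), Parp14 (2187, others 1709 to 1771) and Samd9l (891, others 548 to 585), and WT tumor 2 was low for Ifitm3 (25.2, others 43.0 to 46.3). IL-6 KO tumor 3 was high for Gbp2 (1283, others 359 to 362) and Iigp1 (118, others 13.6 to 25.2).

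In stroma, IL-6 KO stroma 4 was high for Parp14 (596, others 192 to 237), Sp100 (876, others 319 to 402), Trim30a (704, others 140 to 224), Oas2 (351, others 50.2 to 97.9) and Zbp1 (88.6, others 18.3 to 24.9), and IL-6 KO stroma 3 for Gbp2 (87.9, others 35.5 to 39.7). WT stroma 3 was high for Mx1 (73.7, others 39.0 to 43.2), Trim21 (279, others 124 to 141) and Ifitm2 (40.2, others 19.8 to 21.8), WT stroma 4 for Ifi203 (282, others 56.2 to 59.4), and WT stroma 2 for Zbp1 (48.5, others 18.6 to 23.3).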

How the results depend on the processing

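In stroma no member and no pathway gene was called under any alternative, and over all of them the median log2 fold change of the members lay between -0.70 and -0.42 (at -0.62 as reported). In tumor it lay between -0.37 and -0.19 (at -0.27 as reported). The number of members called lower in tumor, 12 as reported, was 7 with quantile normalization, 16 with array weights and 8 with the replicate number as a block, and 5 to 12 with each library left out. The share of all genes called lower, 9.16% as reported, was 7.98%, 13.4% and 6.99% in these fits and 5.06 to 10.0% with each library left out. The members called higher, 1 as reported, were 2 with the GC content and length trend removed and 1 with each library left out. The pathway genes called higher in tumor, 5 as reported, were 3 with the replicate block, 2 with the GC content and length trend removed and 2 to 5 with each library left out (2 without WT tumor 2 or 3, or without IL-6 KO tumor 1 or 4). The numbers did not pair the samples: the correlation of the deviations of WT and IL-6 KO libraries of the same number was -0.0293 to 0.126 in stroma and -0.0186 to -0.000283 in tumor. The cause of these changes was not tested. Of the 13 members called in tumor, 7 were called in all 9 settings with all libraries, and 6 of these, the members named in the report, also with each library left out. The share of members with the ISRE in the promoter was 26.2% with the longer form, and the median percentile difference, tumor minus stroma, was -14.3 over genes in both tables and -14.85 over those with a mean over 10.

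Signs turned for values near 0 or with a wide spread, none of which was called. The log2 fold change became 0.015 for Ifngr2 in stroma with a pseudocount of 5, 0.17 for Mx1 in stroma and 0.0029 for Ifngr1 in tumor with array weights, -0.054 for Ly6e in tumor with quantile normalization, and -0.18 for Ly6e, 0.012 for Epsti1 and -0.057 for Stat2 in tumor with the GC content and length trend removed. With each library left out the range was -0.069 to 0.41 for Stat2, -0.046 to 0.34 for Ifi35, -1.48 to 1.18 for Ifngr2 and -0.44 to 0.12 for Uba7 in stroma, and -0.058 to 0.084 for Stat2, -0.11 to 0.053 for Ifngr1 and -0.040 to 0.087 for Ly6e in tumor. The files do not give the depth reached by each library, and members at low levels in stroma, with values at 0 in some libraries, carry the widest error.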
